A study of Mus musculus with 12 samples.

Results

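The genes described here handle the exit of cholesterol from cells and its sensing by the liver X receptors (LXRs). The members were fixed by name as 10 genes: Nr1h3, Nr1h2, Abca1, Abcg1, Abcg5, Abcg8, Scarb1, Pltp, Soat1 and Nceh1. A probe set counted as a member when the platform annotation gave it 1 of these symbols alone. The array for macrophages and liver carried 35557 probe sets, and 8 of the 10 genes had 1 each there. On the aorta array, 7 of the 10 genes had 12 probe sets among 22690. Nr1h2, Soat1 and, in the aorta, Nceh1 were not analysed here.

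The study compared mice of genotype Prkch-/-Apoe-/-, called knockouts below, with Apoe-/- mice, called controls. All animals were on the C57BL/6J strain and all lacked Apoe, whose product carries cholesterol in remnant lipoproteins, so no comparison includes a mouse with both genes intact. Prkch is the gene of the kinase PKC eta. Peritoneal macrophages elicited with thioglycolate, cells drawn into the abdominal cavity by an irritant, came unstimulated from females on regular diet. They gave 3 arrays per genotype, from mice aged 18, 17 and 27 weeks as replicates 1, 2 and 3 of each. Livers, re-fed, came from males aged 20 weeks after 12 weeks on a high fat diet and gave 2 arrays for each genotype. For the aorta, males of the same age and diet were taken fed, and each genotype had 1 array holding RNA pooled from 4 mice. Aorta and liver were perfused with saline before removal. The labels call the arrays biological replicates without tying them to separate animals in macrophages and liver, so p-values here reflect array-to-array spread, which may be technical.

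Cholesterol leaves a cell through ATP-binding cassette transporters that load it onto apolipoproteins and high-density lipoprotein (HDL). LXRs bind oxysterols, pair with retinoid X receptors and switch on the genes of these transporters when cellular sterol is plentiful. In macrophages the pathway unloads cholesterol taken up with lipoproteins, and in hepatocytes it also drives sterol into bile, which is why it is studied in atherosclerosis.

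The LXR target best described at the promoter level is Abca1, and the sterol exporters Abcg5 and Abcg8 are read from one shared, divergent promoter. The Abcg5 window is shown because Abcg5 and Abcg8 were both lower in knockout livers and low in macrophages, and the Abca1 window as the one that holds a known LXR element. Each window runs 5′ to 3′ on the gene's strand, from 250 bases before to 50 after the start in RefSeq on GRCm38.p6. Windows were found for 8 of the 10 members, 10 windows in all.
Abca1, chr4:53159846-53160145, minus strand: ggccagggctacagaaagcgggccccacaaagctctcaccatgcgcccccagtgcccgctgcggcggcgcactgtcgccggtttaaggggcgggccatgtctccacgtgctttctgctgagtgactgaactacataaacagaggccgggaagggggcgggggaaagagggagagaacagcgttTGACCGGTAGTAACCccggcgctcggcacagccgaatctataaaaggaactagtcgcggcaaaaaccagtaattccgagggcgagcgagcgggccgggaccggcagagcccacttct
Abcg5, chr17:84682962-84683261, minus strand: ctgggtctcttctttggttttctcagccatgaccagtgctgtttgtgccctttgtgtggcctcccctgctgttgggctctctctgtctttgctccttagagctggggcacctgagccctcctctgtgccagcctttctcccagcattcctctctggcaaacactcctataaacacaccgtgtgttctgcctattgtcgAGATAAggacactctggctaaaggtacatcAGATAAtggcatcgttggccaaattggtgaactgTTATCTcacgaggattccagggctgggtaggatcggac

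Capitals in the Abca1 window mark GGTTA and CGGTCA with any 4 bases between them, read on the opposite strand, a word that starts 67 bases before the start site. The word was written from the known Abca1 LXR element after the window had been seen. It occurred on either strand in 4 of 32851 promoters of this length, 0.0122%, and in no other member's window. Capitals in the Abcg5 window mark the word AGATAA on either strand, the core bound by GATA factors, at positions -52, -22 and 13. All 3 lie in the 209 bases that this window shares with the Abcg8 window on the other strand, where the start sites lie 110 bases apart. AGATAA occurred in 3672 of 32851 promoters, 11.2%. A direct repeat bound by LXR pairs, AGGTCA repeated after any 4 bases, and AGGTCA alone, which overlaps it, were searched on both strands and were in none of the members' windows. They occurred in 5 and 5340 of 32851 promoters, 0.0152% and 16.3%. A match is a string of letters and not a site shown to be bound.

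All values from macrophages and liver are deposited log2 probe set levels, and a difference is knockout minus control unless said otherwise. Array medians lay between 6.57 and 6.77 in macrophages and between 5.88 and 5.93 in liver. Macrophage arrays fell into sets by exactly equal values: knockout replicates 2 and 3 with control replicate 3 shared between 16075 and 18000 of 35557 values per pair (set 2). Pairs among knockout replicate 1 and control replicates 1 and 2 shared between 53 and 69 (set 1), and pairs across the sets at most 3. Knockout macrophage replicate 2 also stood apart, at 36.8 on the first principal component (56.5% of the variance), against -18.8 to 3.40 for the other 5 arrays. Prkch, by its brighter probe set, was at 9.36, 8.79 and 8.87 in knockout macrophages against 9.94, 9.86 and 9.31 in controls, and 5.93 and 5.65 in knockout livers against 6.57 and 6.87 in controls. By that probe set it overlapped between the genotypes in macrophages and did not in liver. The macrophage overlap was only across the sets, knockout replicate 1 against control replicate 3. Minus each array's median, it read 2.59, 2.16 and 2.29 in knockout macrophages against 3.20, 3.13 and 2.71 in controls, without overlap. The dimmer Prkch probe set overlapped in both tissues, in macrophages again only between those 2 arrays. In liver it read 3.94 and 4.21 in knockouts against 4.08 and 4.04 in controls. Which part of the gene was removed is not given in the sources used here. Apoe, deleted in all mice, read 8.99 to 9.13 in knockout and 8.99 to 9.34 in control macrophages, and 8.39 and 8.87 in knockout livers against 9.12 and 8.96 in controls, so its probe set does not check the deletion.

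The levels of the members were compared across the control tissues. Nceh1, Abcg1 and Pltp were higher in macrophages, while Abcg5, Abcg8, Scarb1 and Nr1h3 were higher in liver. These 7 of 8 members passed the threshold (limma on values centred on each array's median, Benjamini-Hochberg adjusted p under 0.05), where 67.1% of all 15560 genes tested did, 36% as higher and 31.1% as lower in macrophages. The count of members is therefore read against a background in which most genes differ. Only the sizes below say more, and they depend on the centring. Sex, diet, age and array medians differ with the tissue, and array processing may, so tissue cannot be told apart from them. The markers fit the labels in both tissues: 11 of 11 macrophage markers passed as higher in macrophages, and 9 of 9 hepatocyte markers passed as higher in liver, 5 of them below the 30th percentile on every macrophage array. B-cell markers, 6 of 6 measured, were also higher in the macrophage arrays.

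**Figure D1:**
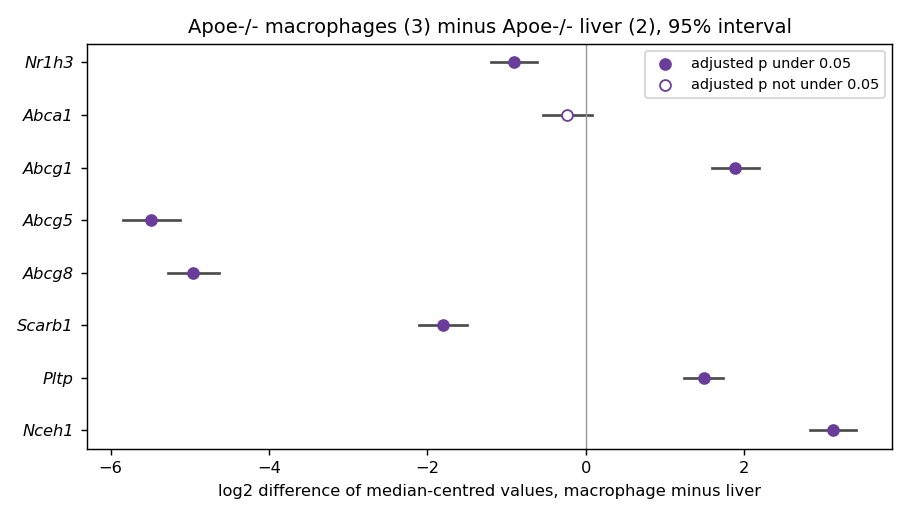
Difference between control tissues for each member, macrophage minus liver, in log2 units of median-centred values (horizontal axis); points are limma estimates over 3 macrophage and 2 liver arrays, bars are 95% intervals, and filled points passed the adjusted threshold. Abcg5 and Abcg8, whose macrophage levels may be background so that their values are limits, are drawn at -5.48 and -4.95, Nceh1 is drawn at 3.12, and the interval of Abca1, the open point, spans 0.

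Nceh1, the hydrolase that frees cholesterol from stored esters in macrophages, was 5.50 ± 0.14 log2 units above the array median in control macrophages and 2.38 ± 0.18 above it in control liver (SD, n = 3 and 2). That is 8.69-fold higher in macrophages (limma, Benjamini-Hochberg adjusted p = 2.4e-08). Abcg1, which passes cholesterol to HDL particles, was 3.69-fold higher in macrophages, at 4.97 ± 0.15 against 3.09 ± 0.19 in liver (limma, adjusted p = 1.1e-06). Pltp, the phospholipid transfer protein that remodels HDL, was 2.80-fold higher, at 6.25 ± 0.09 against 4.77 ± 0.08 (limma, adjusted p = 1.6e-06). Pltp stood at or above the 98.9th percentile of all probe sets on every macrophage array.

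Abcg5 and Abcg8 form the heterodimer that secretes sterols into bile, and both were low on the macrophage arrays. No detection value is given, so the macrophage levels may be background. On the centred values, the differences below are then lower limits on the size. Abcg5 averaged -0.73 ± 0.15 in macrophages against 4.75 ± 0.35 in liver, a difference of -5.48 (limma, adjusted p = 2.3e-09). Abcg8 averaged -1.07 ± 0.25 against 3.88 ± 0.0041 (SD, n = 3 and 2), a difference of -4.95 (limma, adjusted p = 2.5e-09). Its macrophage mean was below the filter's minimum of -0.92, so it was tested only through its level in liver. On macrophage arrays of both genotypes they lay between the 21.7th and the 36.6th percentile of all probe sets. Levels that low say little about the direction of any difference between genotypes there.

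Scarb1, the HDL receptor of hepatocytes, was lower in macrophages, at 2.85 ± 0.07 against 4.65 ± 0.28 in liver, a difference of -1.80 (limma, adjusted p = 1.8e-06). Nr1h3, which encodes LXR alpha, was at 3.33 ± 0.19 in macrophages against 4.23 ± 0.03 in liver, a difference of -0.91 (limma, adjusted p = 1.7e-04). Abca1, which loads lipid-poor apolipoprotein A-I, was at 4.24 ± 0.21 against 4.48 ± 0.13, a difference of -0.24 with a 95% interval of -0.55 to 0.07 (limma, adjusted p = 0.155). Without centring, the median difference of all genes moved to 0.80 against 0.02 with it, and called genes split 86.9% higher in macrophages, against 53.7% with it. On those values Abca1 turned to 0.54 (limma, adjusted p = 0.00612) and the Nr1h3 call was lost, at -0.13 (limma, adjusted p = 0.364). The other 6 calls kept their direction but not their size. Nceh1 was at 3.90 against 3.12 with centring, Abcg1 at 2.66 against 1.88 and Pltp at 2.27 against 1.49. Uncentred, Abcg5 was at -4.70, Abcg8 at -4.17 and Scarb1 at -1.02.

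In liver, 8 of 8 members had a lower mean in knockouts than in controls, and 5 of them were lower on both knockout arrays than on either control array. Those 5 were Pltp, Abcg8, Abcg5, Nceh1 and Abcg1, at 59.5% to 71.7% of the control level. No member passed the threshold over all genes (limma, Benjamini-Hochberg adjusted p), where 0.00627% of 15942 genes did, that is 1 gene. The same 5 members had an unadjusted p under 0.05, against 4.29% of all genes. Lower without overlap applied to 18% of all genes and higher without overlap to 11.8%. The median difference was -0.51 over the 8 members and -0.02 over all genes, of which 57.1% were lower.

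**Figure D2:**
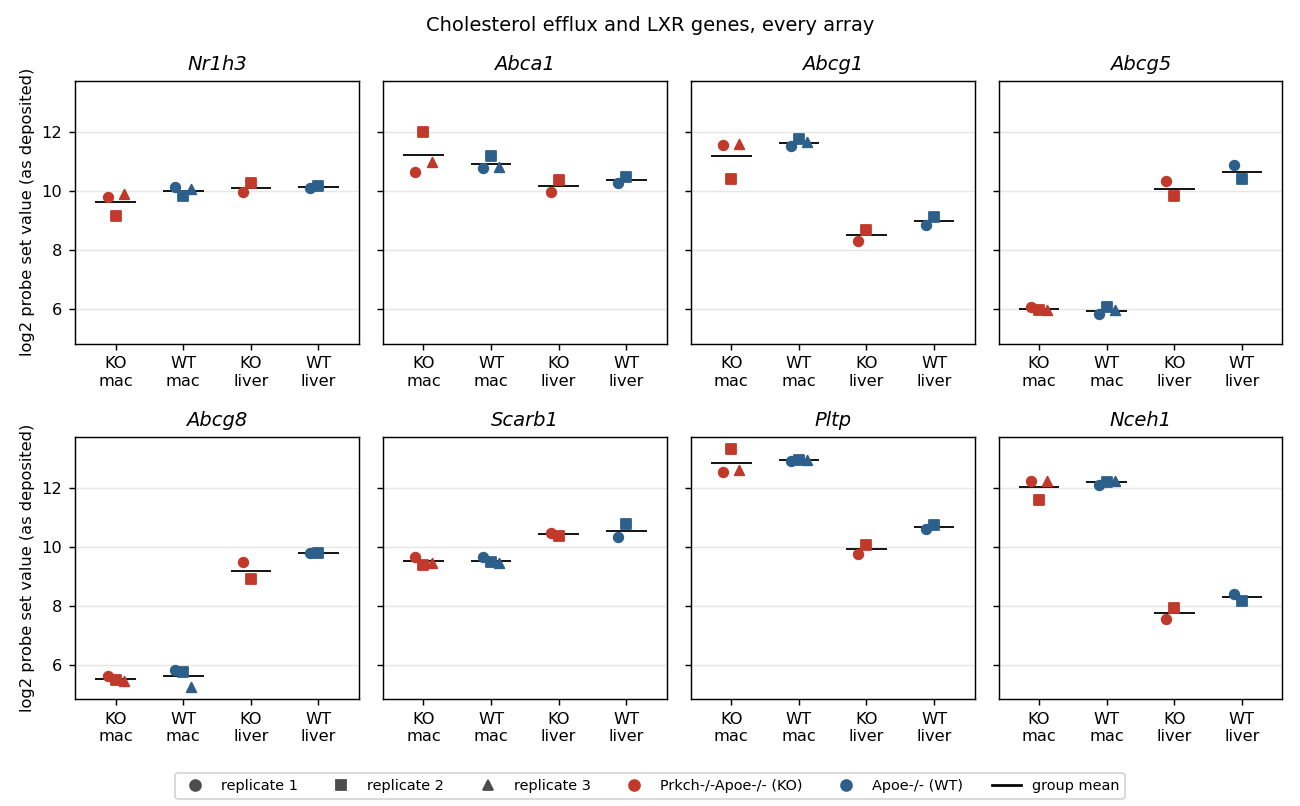
Deposited log2 level (vertical axis) of each of the 8 members, 1 panel per gene, with knockout arrays left of control arrays for macrophages and for liver; points are single arrays and bars are group means. In liver the knockout points of Pltp, Abcg8, Abcg5, Nceh1 and Abcg1 lie below both control points, and in macrophages all members overlap.

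Among the exporters, Abca1 read 9.99 and 10.39 in knockout livers against 10.29 and 10.48 in controls. The genotypes overlapped, since knockout replicate 2 lay between the controls, and the difference was -0.19 ± 0.17 (SE, n = 2 and 2) with a 95% interval of -0.58 to 0.19 (limma, adjusted p = 1.00). Abcg1 read 8.33 and 8.69 in knockout livers against 8.85 and 9.13 in controls. Both knockout arrays were below both controls, by a mean of -0.48 ± 0.17 (SE), interval -0.87 to -0.09, unadjusted p = 0.0223 and adjusted p = 1.00 by limma.

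The biliary pair differed by like amounts. Abcg5 read 10.34 and 9.85 in knockout livers against 10.90 and 10.42 in controls, and its highest knockout array was just below its lowest control array. The difference was -0.56 ± 0.21 (SE), interval -1.05 to -0.07, unadjusted p = 0.0297 and adjusted p = 1.00 by limma. Abcg8 read 9.47 and 8.90 in knockout livers against 9.79 and 9.79 in controls, with no overlap. The difference was -0.60 ± 0.19 (SE), interval -1.04 to -0.16, unadjusted p = 0.0135 and adjusted p = 1.00 by limma.

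Among the members that act on lipoproteins, Pltp read 9.76 and 10.08 in knockout livers against 10.61 and 10.73 in controls, the widest gap between genotypes of any member here. Its difference was -0.75 ± 0.15 (SE), interval -1.10 to -0.40, unadjusted p = 0.00113 and adjusted p = 0.654 by limma, and it lay at the 0.358th percentile of the differences of all genes. Over the alternatives its adjusted p ran from 0.0726 to 1.00. Scarb1 read 10.48 and 10.38 in knockout livers against 10.35 and 10.76 in controls, so the knockout arrays lay inside the range of the controls. Its difference was -0.13 ± 0.17 (SE), interval -0.51 to 0.25, with an adjusted p of 1.00 by limma.

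Nceh1 read 7.56 and 7.94 in knockout livers against 8.41 and 8.17 in controls, with no overlap. The difference was -0.53 ± 0.17 (SE), interval -0.92 to -0.15, unadjusted p = 0.0132 and adjusted p = 1.00 by limma. The receptor gene Nr1h3 read 9.97 and 10.28 in knockout livers against 10.12 and 10.17 in controls, so the knockout arrays lay on either side of the controls. Its difference was -0.01 ± 0.15 (SE), interval -0.36 to 0.33, which leaves room for changes of about that size either way.

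The size of these differences depended on the single array. Measured against the control mean, knockout replicate 1 was lower for Pltp (-0.91), Nceh1 (-0.72) and Abcg1 (-0.66) than for Abcg5 (-0.32) and Abcg8 (-0.31). Knockout replicate 2 had the opposite order, with Abcg8 at -0.89 and Abcg5 at -0.80 against Pltp at -0.59, Nceh1 at -0.34 and Abcg1 at -0.30. Leaving out knockout replicate 1 gave these second values. Leaving out knockout replicate 2 gave the first values, and Abca1 was then at -0.40. Across the 4 liver arrays the Pearson correlation was 0.89 between Abcg5 and Abcg8, 0.95 between Abcg1 and Pltp and 0.91 between Pltp and Nceh1. These correlations describe 4 arrays that share their genotype split.

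**Figure D3:**
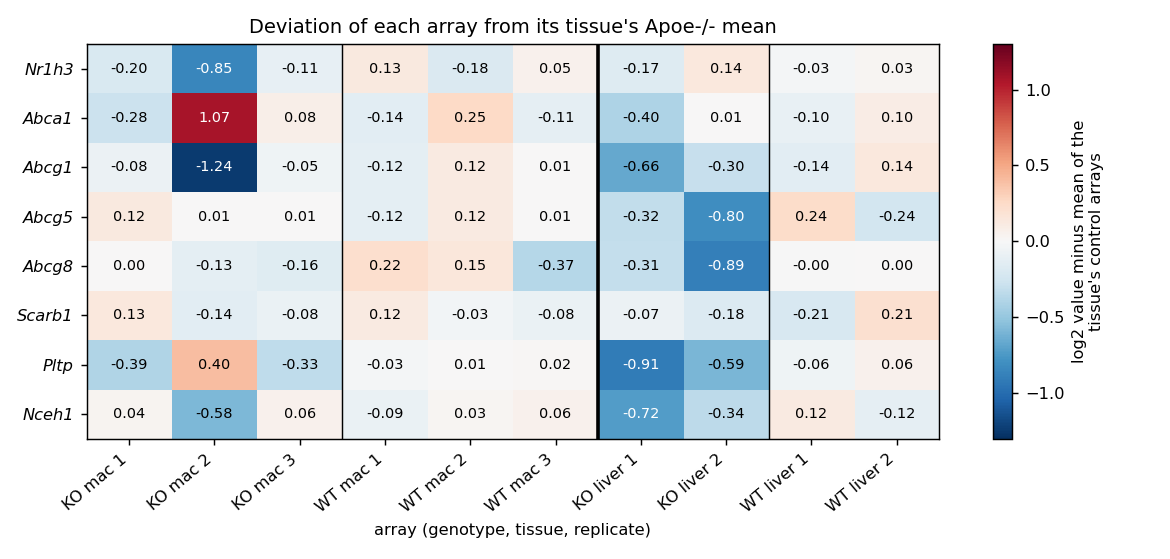
Difference of each array from the mean of its tissue's control arrays (log2 units, colour and printed value), with members in rows and all 10 macrophage and liver arrays in columns. Knockout macrophage replicate 2 differs from the other macrophage arrays in Abca1 (1.07) and Abcg1 (-1.24), and the liver arrays have opposite orders for Pltp and Abcg8.

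Markers of macrophages and of other non-parenchymal cells were mostly lower in knockout livers as well, and none passed the threshold (limma, Benjamini-Hochberg). Of 11 macrophage markers 10 were lower in knockout livers, 7 of them without overlap, where 18% of all genes were, with a median difference of -0.32. An unadjusted p under 0.05 (limma) was reached by 5 of the 11, all lower, against 4.29% of all genes. With control replicate 1 left out that median was -0.49, and with control replicate 2 left out it was -0.18. Their summed level was between 12.50 and 12.71 on the log2 scale in knockouts and between 12.85 and 13.29 in controls. Kupffer cell markers, those of the liver's resident macrophages, were lower for 6 of 7, 1 without overlap, with a median of -0.41 and summed levels of 12.90 to 13.09 in knockouts against 13.11 to 13.40 in controls. Their medians were 0.16 in knockout replicate 1 and -0.61 in knockout replicate 2, measured against the control mean. Those of the macrophage markers were -0.47 in replicate 1 and -0.30 in replicate 2. Pltp, Nceh1 and Abcg1 were lowest in replicate 1. Without control replicate 1 the Kupffer median was -0.74 and without control replicate 2 it was -0.01. Endothelial markers were lower for 7 of 7, 3 without overlap, with a median of -0.10, and fibroblast markers for 5 of 6, 2 without overlap, with a median of -0.27. Against the control mean, the fibroblast median was -0.43 in knockout replicate 1 and 0.02 in knockout replicate 2. The endothelial median was -0.23 in replicate 1 and -0.07 in replicate 2. Of the 9 hepatocyte markers 7 were higher, with a median of 0.05 and summed levels of 16.67 to 16.69 in knockouts against 16.64 to 16.65 in controls. Only 1 of the 9 had an unadjusted p under 0.05 (limma), Cyp3a11, and it was lower, at -0.53. In whole tissue, fewer cells of a type and less RNA per cell cannot be told apart. The part of these markers in the differences of Pltp, Abcg1 and Nceh1, the members that were higher in control macrophages, was not tested.

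In macrophages, 0 of 7 members passed the threshold (limma, Benjamini-Hochberg adjusted p) and 0 had an unadjusted p under 0.05, against 0% and 0.698% of the 15039 genes tested. Every member overlapped between the genotypes, where 1.6% of all genes were lower and 0.652% higher without overlap. The median difference was -0.11 over the 7 members, 5 of them lower, and -0.04 over all genes, of which 63.5% were lower. Abcg8 was left out by the filter on dim genes, with a mean of 5.57 against the minimum of 5.74.

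**Figure D4:**
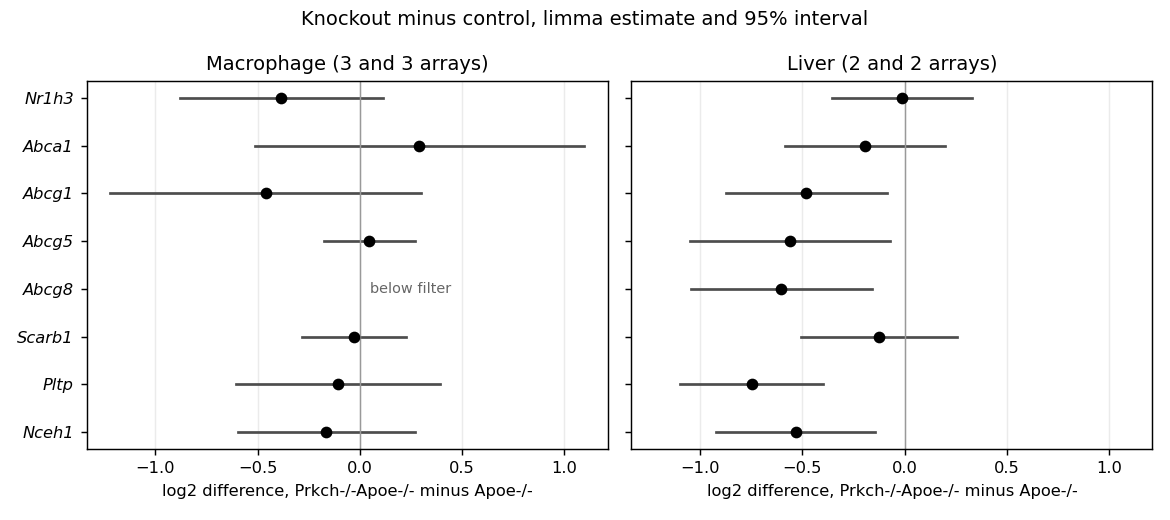
Difference between genotypes in log2 units (horizontal axis, knockout minus control) for each member in macrophages and in liver, with points for the limma estimate and bars for its 95% interval. The liver intervals of Pltp, Abcg8, Abcg5, Nceh1 and Abcg1 lie below 0, and each of the 7 macrophage intervals drawn spans 0; Abcg8 was below the macrophage filter.

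Abca1 read 10.65, 12.00 and 11.01 in knockout macrophages against 10.79, 11.18 and 10.82 in controls. Only knockout replicate 2 was above all controls. The difference was 0.29 ± 0.34 (SE, n = 3 and 3), interval -0.51 to 1.09, with an adjusted p of 1.00 by limma, and it was -0.33 in set 1, 0.69 in set 2, 0.18 with the set as a block and -0.10 without that array. Abcg1 read 11.58, 10.41 and 11.60 in knockout macrophages against 11.53, 11.78 and 11.66 in controls. Here the same array was below all others, and the remaining knockouts lay among the controls. The difference was -0.46 ± 0.32 (SE), interval -1.22 to 0.30, adjusted p = 1.00 by limma, with -0.08 in set 1, -0.65 in set 2, -0.37 with the block and -0.07 without knockout replicate 2.

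Nr1h3 read 9.82, 9.17 and 9.91 in knockout macrophages against 10.15, 9.83 and 10.07 in controls. Knockout replicates 1 and 2 were below every control and replicate 3 was not. The difference was -0.38 ± 0.21 (SE), interval -0.88 to 0.11, adjusted p = 1.00 by limma, with -0.17 in set 1, -0.53 in set 2, -0.35 with the block and -0.15 without knockout replicate 2.

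Pltp read 12.55, 13.34 and 12.61 in knockout macrophages against 12.91, 12.95 and 12.96 in controls. Knockout replicates 1 and 3 were below all controls, replicate 2 was above them, and the controls lay close together. The difference was -0.11 ± 0.21 (SE), interval -0.61 to 0.39, adjusted p = 1.00 by limma, with -0.38 in set 1, 0.02 in set 2 and -0.18 with the block. Without knockout replicate 2 it was -0.36, with an unadjusted p under 0.05 (limma). Pltp was then the only member to reach that, against 0.722% of all genes.

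Nceh1 read 12.22, 11.60 and 12.24 in knockout macrophages against 12.10, 12.21 and 12.25 in controls, with knockout replicate 2 below all others. The difference was -0.16 ± 0.18 (SE), interval -0.60 to 0.27, adjusted p = 1.00 by limma, with 0.06 in set 1, -0.32 in set 2, -0.13 with the block and 0.05 without that array. Scarb1 read 9.67, 9.39 and 9.45 in knockout macrophages against 9.65, 9.50 and 9.45 in controls. The values interleaved, at -0.03 ± 0.11 (SE), interval -0.28 to 0.22, with 0.09 in set 1, -0.03 in set 2 and 0.03 with the block.

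Abcg5 read 6.08, 5.96 and 5.96 in knockout macrophages against 5.83, 6.07 and 5.96 in controls. The 3 arrays of set 2 carried 1 identical value, and Scarb1 had 2 distinct values there, so both have less information than their replicate number implies. The Abcg5 difference was 0.05 ± 0.09 (SE), interval -0.18 to 0.27, with 0.13 in set 1, 0.06 with the block and 0.07 without knockout replicate 2. Abcg8 read 5.62, 5.49 and 5.46 in knockout macrophages against 5.83, 5.77 and 5.24 in controls. With no filter its difference was -0.09 ± 0.17 (SE), interval -0.49 to 0.30, with an adjusted p of 0.998 by limma.

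Markers of B cells, macrophages and fibroblasts also differed most from the control mean on that array. Against the control mean, knockout replicate 2 had marker medians of 1.56 for B cells, 0.52 for macrophages and -1.42 for fibroblasts. Knockout replicates 1 and 3 had -0.51 and -0.30 for B cells, -0.05 and -0.10 for macrophages and 0.10 and -0.63 for fibroblasts. Mesothelium markers had exactly the same median, -0.46, on knockout replicates 2 and 3. Both arrays are in set 2 and share 16075 of 35557 exactly equal values, so the medians are not 2 separate readings. The B-cell markers summed to between 10.30 and 12.11 on the log2 scale in knockouts and between 10.35 and 11.14 in controls, with 5 of 6 markers higher on average and a median of 0.21. That median was -0.45 without knockout replicate 2 and 0.53 without control replicate 1. Over all knockouts the macrophage markers had a median of 0.00, 5 higher and 6 lower of 11. Fibroblast markers were lower for 4 of 4 tested, with a median of -0.67 that was -0.15 without knockout replicate 2. Mesothelium markers were lower for 6 of 7, with a median of -0.34 that was -0.20 without that array. Of the 7, 2 had an unadjusted p under 0.05 (limma), against 0.698% of all genes. None of these markers passed the threshold (limma, Benjamini-Hochberg). Across the 6 macrophage arrays Abcg1 and Nceh1 correlated at 0.98, Abca1 and Abcg1 at -0.86 and Abca1 and Nr1h3 at -0.90, values that rest on knockout replicate 2. The part of these other cell types in the members' values was not tested.

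Whether the genotype difference itself differed between the tissues was tested as macrophage difference minus liver difference. No member passed (limma, Benjamini-Hochberg), where 0% of 15548 genes did. Of the 8 members 1 had an unadjusted p under 0.05, against 2.01% of all genes. That member was Abcg5, at 0.61 with a 95% interval of 0.06 to 1.16 (limma, unadjusted p = 0.0339, adjusted p = 1.00), from a difference of 0.05 in macrophages and -0.56 in liver. The low macrophage levels of Abcg5 and Abcg8, given above, bear on the contrasts of both, and Abcg8 was below the filter in macrophages alone. Pltp had 0.64 (interval -0.02 to 1.31), Abcg8 0.51 (-0.12 to 1.14), Abca1 0.49 (-0.54 to 1.51) and Nceh1 0.37 (-0.25 to 0.99). Nr1h3 had -0.37 (-1.03 to 0.29), Scarb1 0.10 (-0.36 to 0.55) and Abcg1 0.02 (-0.96 to 1.00). Sex, diet and age differ with the tissue, so the contrast compares settings and not tissues alone.

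In the aorta, 1 pooled array per genotype allowed values and no test. Signals are on the authors' linear scale, differences are log2(signal + 16) of the knockout pool minus the control pool, and that scale understates changes of dim probe sets. Of the members' 12 probe sets 8 were at or above the median signal of 28.9 on the brighter array, and 0 of these reached 2-fold, against 1.23% of 10825 probe sets. Their median difference was 0.05 and that of all probe sets 0.00, with the middle 90% between -0.45 and 0.50.

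**Figure D5:**
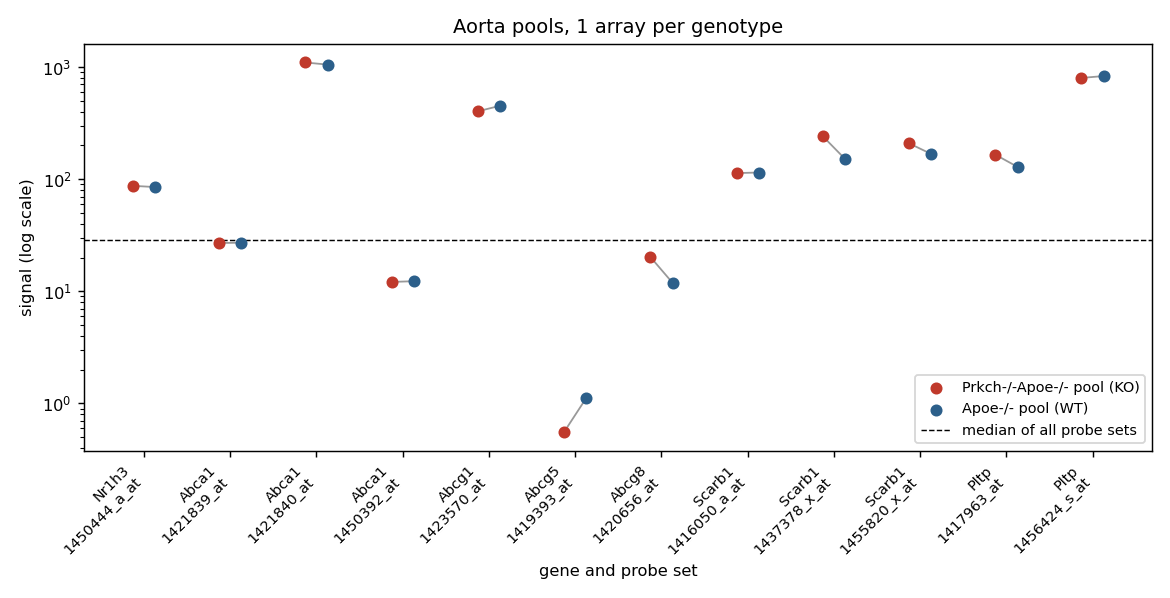
Signal of each probe set of the members in the pooled aortas (log axis), with the knockout pool and the control pool as points, 1 array each. Abca1 1421840_at is the brightest at 1101 in the knockout pool and 1053 in the control pool, and Abcg5 is the dimmest at 0.55 and 1.12.

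The Abca1 probe set 1421840_at read 1101 in the knockout pool and 1053 in the control pool, a difference of 0.06. Its other probe sets were below the filter, at 27.0 against 27.1 for 1421839_at and 12.1 against 12.3 for 1450392_at. Abcg1 read 403 in the knockout pool and 453 in the control pool, a difference of -0.16. Both exporters were thus well above the median, and their differences lay inside the middle 90% of all probe sets.

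Nr1h3 read 87.3 in the knockout pool and 85.1 in the control pool, a difference of 0.03. The probe sets of Pltp disagreed: 1456424_s_at read 801 against 833, a difference of -0.05, and 1417963_at read 166 against 129, a difference of 0.33. Those of Scarb1 disagreed as well. The largest difference among the members' 8 probe sets above the filter was that of 1437378_x_at, at 242 in the knockout pool and 151 in the control pool, a ratio of 1.60 and a difference of 0.63, outside the middle 90% of all probe sets, while 1455820_x_at read 209 against 168 (0.30) and 1416050_a_at read 113 against 115 (-0.02). Abcg5 read 0.55 against 1.12 and Abcg8 20.3 against 11.9, all below the filter, where ratios have little meaning.

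Markers of the adrenal cortex, a tissue where Scarb1 is abundant, were higher in the knockout pool for 9 of the 10 probe sets above the filter, with a median difference of 2.24. Their signals summed to 2613 in the knockout pool and 1122 in the control pool, and the steroid synthesis gene Star read 302 against 15.3. Skeletal muscle markers were lower for 7 of 7, with a median of -0.89, and B-cell markers summed to 995 against 192. Macrophage markers were higher for 11 of 14 probe sets with a median of 0.12, and none of the hepatocyte probe sets was above the filter. The part of these tissues in the Scarb1 values was not tested.

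Among other genes of the pathway, 0 passed the threshold in macrophages or liver (limma, Benjamini-Hochberg) and 0 reached 2-fold in the aorta. LXR partners and co-regulators had 4 higher and 9 lower of 13 tested in liver, with a median of -0.08. In macrophages they had 9 higher and 3 lower of 12, with a median of 0.06. Other LXR target genes split 7 higher to 7 lower of 14 in liver, with a median of -0.04, and 7 to 6 of 13 in macrophages, with a median of 0.02. In liver 3 of the 14 had an unadjusted p under 0.05, against 4.29% of all genes, and in macrophages 0 of 13, against 0.698%. Fasn, the fatty acid synthase, averaged 10.71 in knockouts and 9.68 in controls, a difference of 1.02 ± 0.33 (SE, n = 2 and 2; limma, adjusted p = 1.00). Acaca, the acetyl-CoA carboxylase upstream of it, differed by 0.44. Lpl, the lipoprotein lipase, averaged 8.28 in knockouts and 9.01 in controls, a difference of -0.73 ± 0.24 (SE). Mylip, whose product degrades the LDL receptor, differed by -0.35. The lipogenic master regulator Srebf1 differed by 0.10 ± 0.25 (SE) in liver and 0.02 ± 0.08 in macrophages, which gives no direction. Scd1, of the same list, differed by -0.42 ± 0.21 (SE) in liver. The list held genes of either direction.

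Among the enzymes that make or break down oxysterols, 3 were higher and 4 lower of 7 in liver. Cyp39a1, an oxysterol hydroxylase of the liver, differed by 1.06 ± 0.16 on the log2 scale (SE, n = 2 and 2; limma, Benjamini-Hochberg adjusted p = 0.272). It was higher without overlap, as was Hsd11b1 at 0.27, against 11.8% of all genes, while Cyp27a1 and Cyp46a1, both at -0.21, were lower without overlap, against 18%. In macrophages 2 were higher and 2 lower of 4 tested, the others being below the filter. Genes of intracellular cholesterol handling were lower for 11 of 16 in liver (median -0.13) and for 10 of 13 in macrophages (median -0.04). In liver 1 of the 16, Stard4, had an unadjusted p under 0.05, and in macrophages 0 of 13, against the same 4.29% and 0.698% of all genes. Stard4, a sterol carrier, differed by 0.61, Gramd1b, a sterol transporter at membrane contacts, by -0.36, and Npc2, which binds cholesterol in lysosomes, by -0.23. In macrophages the lysosomal Stard3 differed by -0.33 and Stard5 by -0.29.

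Genes of HDL and its acceptors split 6 higher to 6 lower of 12 in liver, 1 of them at an unadjusted p under 0.05 (4.29% of all genes), and 3 to 5 of 8 in macrophages. Apom, an HDL apolipoprotein, averaged 10.67 in knockout livers and 10.03 in controls, a difference of 0.64 ± 0.14 (SE, n = 2 and 2; limma, adjusted p = 0.682). Abcb11, the bile salt exporter beside Abcg5 and Abcg8 on the canalicular membrane, differed by 0.26, and Abcb4, the phospholipid exporter there, by -0.21. In the aorta the list members with the largest differences were Stard3, at 58.1 in the knockout pool and 89.1 in the control pool, Srebf1, at 537 against 747, and Lpcat3, at 220 against 304.

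The genes whose pattern over the 10 macrophage and liver arrays was most like that of Abca1, after each tissue's mean was subtracted, were Rcan1 (r = 0.98), Gdap2 (0.97) and Grk5 (0.96), over 14616 genes tested in both tissues. For Abcg5 they were Aqp12 (0.97), Ccr10 (0.96) and Rnf186 (0.96). These are descriptions of 10 arrays, and for Abca1 the likeness includes the knockout macrophage array that stood apart. Abcg5 was low and nearly flat in macrophages, so its likeness rests mainly on the liver arrays. There the genotype differences were -0.34 for Aqp12, -0.26 for Ccr10 and -0.25 for Rnf186.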

How the data were processed

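Expression was read from 12 arrays. The authors' deposited macrophage and liver values are log2 probe set levels and their deposited aorta values are linear signal intensity, made in Affymetrix Expression Console, according to the labels (per the submitters' processing notes). Its version, algorithm and normalization were not given in the sources used here. Names came from the platform annotation, from probe sets with 1 symbol only, and a gene took its brightest probe set. Genes below the 30th percentile of probe set means were left out. Each tissue was fitted alone with limma 3.58.1 (lmFit, eBayes) in R 4.3.3, and adjusted p-values are Benjamini-Hochberg over all genes tested. Macrophages and liver were also fitted together for the interaction, and control arrays on median-centred values for the tissue contrast. The code was tested on simulated data. Members, lists and tests were chosen with earlier results of these data known. Named were every member, Prkch and Apoe, up to 4 genes per list with the smallest p (aorta: largest difference), and the 3 genes most like Abca1 and Abcg5. Srebf1 in liver and macrophages and Scd1 in liver were added after their values were seen. Same-numbered macrophage arrays share an age, but the labels name no shared litter, batch or day. Their deviations correlated at 0.40, 0.03 and 0.50, against -0.46 to 0.19 for differently numbered arrays, and the replicates numbered 2 fell in different sets. With 2 liver arrays per genotype these correlations are equal in size by construction (0.11 or -0.11) and decide nothing. The numbers were not used as pairs in the reported fits, and results with them as a replicate block are given below. The number of arrays limits the precision.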

Additional observations from a re-analysis of the deposited data

How the results depend on the processing

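No member passed the adjusted threshold for genotype or interaction under any alternative run, and 7 of 8 passed between control tissues in each, with Abca1 in place of Nr1h3 when uncentred (Abca1 0.54). The liver count of 1 gene became 0 with no filter, with quantile normalization and with all 10 arrays in 1 fit, 2 with every probe set tested and 23 with the replicate block. Leaving out single liver arrays gave 0 to 39 genes, 39 without knockout replicate 2, 3 without control replicate 2 and 0 without knockout replicate 1 or control replicate 1. Liver members at unadjusted p under 0.05 (limma), 5 in the main fit, were 4 with all 10 arrays in 1 fit, against 3.76% of all genes. Which members reached it, in liver and for the interaction, also changed with the single liver array left out. Over the alternatives, liver Pltp ran from -0.91 to -0.59, Abcg8 from -0.89 to -0.31 and Abcg5 from -0.80 to -0.32. Liver Nceh1 ran from -0.72 to -0.34 and Abcg1 from -0.66 to -0.30, and none of these changed sign. Without knockout macrophage replicate 2, macrophage members were 1 (Pltp), against 0.722%, and without any other single macrophage array 0. Interaction members were 0 without control macrophage replicate 1 or 3, against 1.44% and 3.72%. They were 2 without knockout macrophage replicate 2 or 3, against 2.38% and 1.9%. With the replicate block, macrophage members were 1 (Nr1h3), against 1.34%, and interaction members 2, against 3.38%. Interaction members were also 2 with centring, against 2.55%, and with the sets of equal values as a block, against 3.84%. Small differences changed sign. In macrophages Nceh1 was 0.0076 with array weights, whose estimation stopped before convergence, and Scarb1 0.0011 with centring and 0.032 with the set block. Liver Nr1h3 was 0.00087 and interaction Abcg1 -0.037 with quantile normalization. With each aorta array divided by its median, Abca1 1421840_at turned to -0.048 and Nr1h3 to -0.064. Leave-one-out ranges in macrophages were -0.10 to 0.58 for Abca1, -0.016 to 0.10 for Abcg5, -0.27 to 0.046 for Nceh1, -0.36 to 0.033 for Pltp and -0.11 to 0.028 for Scarb1. In liver they were -0.40 to 0.0083 for Abca1, -0.17 to 0.14 for Nr1h3 and -0.33 to 0.0805 for Scarb1. For the interaction they were -0.18 to 0.41 for Abcg1 and -0.11 to 0.30 for Scarb1. Aorta probe sets past 2-fold, 133, were 285 with a pseudocount of 1, 84 with 32, 81 with both arrays above the median and 624 at 1.5-fold, where 1 member (Scarb1) was counted. The cause of these shifts was not tested. With 2 or 3 arrays per group, intervals allow changes of the size of most members' differences.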
